A study of Arabidopsis thaliana with 36 samples.

Results

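RpoB binding to plastid DNA in the ptac14 mutant of Arabidopsis was compared with that in Col-0, the wild type, in 12 of the 36 libraries of the series. The libraries were those whose titles name both RpoB and ptac14. They form 4 groups of 3 replicates: RpoB ChIP from ptac14, input from ptac14, RpoB ChIP from Col-0 and input from Col-0. Chromatin immunoprecipitation with sequencing (ChIP-seq) recovers DNA crosslinked to a protein, and an input library is made without the immunoprecipitation. Both genotypes were seedlings 5 days old, 50 to a sample, grown on 0.5-strength MS medium under continuous light of 100 µmol m-2 s-1 after 48 h in the dark. Both were fixed in 4% formaldehyde for 4 h before chloroplasts were pelleted. No other treatment was named, and the labels do not give the ptac14 allele or the antibody. The genotype tag reads wild type for mutants too, so the groups rest on the titles and on a second tag that names the plant line. The gene for pTAC14 lies in the nucleus, outside the coverage table, so its loss could not be checked here.

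Most photosynthesis genes of the plastid, and its tRNA and rRNA genes, are transcribed by the plastid-encoded RNA polymerase (PEP), a bacterial-type enzyme. RpoB is its beta subunit and is itself encoded in the plastid, in an operon read mainly by a separate nuclear-encoded polymerase (NEP). pTAC14 is a nuclear-encoded protein with a SET domain that is found in the PEP complex of the plastid transcriptionally active chromosome, and plants without it do not form normal green chloroplasts. The comparison asked where RpoB still sits on plastid DNA in such plants.

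Each library was scaled to its own mean coverage, and enrichment was taken as log2 of ChIP over input of the same group and replicate number, in bins of 50 bp. A value of 0 is the level of the input, and 1 is a doubling over it. Gene values are means over the gene body, and 113 genes were described when 1 copy of the inverted repeat was counted. Scaling to the mean makes the values relative, so that a library with much of its ChIP coverage in some bins has lower values in the remaining bins. A bin or gene was called changed at a Benjamini-Hochberg adjusted p under 0.05 in limma. The labels do not say that replicates came from separate plantings, so p-values measure only the spread between these samples. Mean coverage per position was 69.1, 149 and 143 in ptac14 ChIP replicates 1, 2 and 3, against 113, 524 and 1177 in Col-0 ChIP. Inputs had 723, 824 and 760 in ptac14, against 542, 442 and 637 in Col-0.

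In ptac14 the RpoB profile was close to that of the input, and replicate 3 kept a small part of the wild-type pattern. To measure this with regions taken from other libraries, 642 bins (20.8% of positions) were used that were above input for RpoB in Col-0 of the ptac3 set (limma, adjusted p under 0.05), which has its own Col-0 libraries. These bins held 18.7%, 19.2% and 28.2% of the ChIP coverage in ptac14 replicates 1, 2 and 3, against 62.1%, 67.5% and 77.1% in Col-0. They held 21.2%, 21.5% and 20.8% of the input coverage in ptac14, against 20.4%, 19.98% and 19.8% in Col-0. ChIP exceeded input by 0.84 ± 5.66 percentage points in ptac14 and by 48.8 ± 7.86 points in Col-0 (SD, n = 3 each). The groups did not overlap, and the exact permutation test gave p = 0.1, the smallest that 3 against 3 samples allow. The amount of RpoB protein was not measured, so less protein and less binding by each molecule cannot be told apart.

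**Figure D1:**
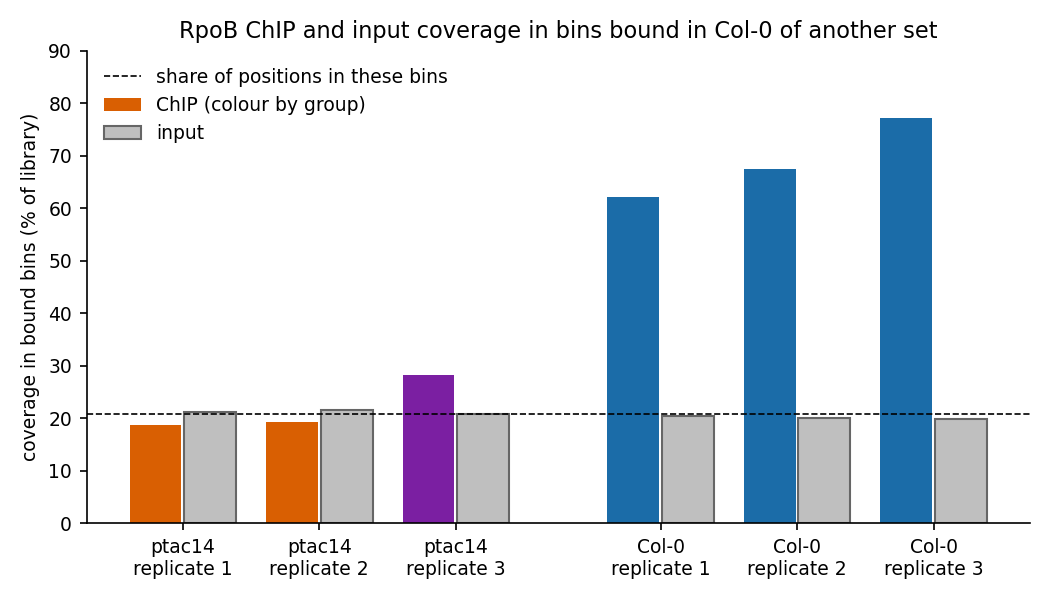
Share of each library's coverage (percent, y axis) in the 642 bins bound by RpoB in Col-0 of the ptac3 set, for ptac14 (left) and Col-0 (right), with ChIP in colour (purple for ptac14 replicate 3) and input in grey. The dashed line is the share of positions in these bins, 20.8%. ChIP from ptac14 sits between 18.7% and 28.2%, against 62.1% to 77.1% in Col-0.

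By bin, 541 of 3085 were lower in ptac14 (17.5%) and 2140 were higher (69.4%), which makes 86.9% called by limma, and 87.3% had an unadjusted p under 0.05. Of the 642 bound bins, 537 were lower and 0 were higher, and of the other 2443 bins 4 were lower and 2140 higher. The higher calls depend on the scaling. The median bin stood 1.31 higher in ptac14 on the log2 scale, against 0.022 when libraries were scaled to their median bin and -0.66 when they were scaled to rpoB, rpoC1 and rpoC2, the genes of the rpoB operon. With the median scaling 1076 bins were lower and 884 higher, and with the rpoB operon scaling 1701 were lower and 8 higher. Each rise given here is therefore relative to the library mean.

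By gene, 105 of 128 entries were called (82.0%), 35 lower (27.3%) and 70 higher (54.7%), and 83.6% had an unadjusted p under 0.05. Groups did not overlap in 116 of 128 entries (90.6%). Against their own input, the Col-0 libraries had 119 of 128 entries called (93.0% by adjusted and by unadjusted p), 45 above and 74 below input. The Col-0 mean was above input in 30 of 30 tRNA genes, 4 of 4 rRNA genes and 4 of 79 protein-coding genes. The direction of change in ptac14 also followed gene class. With 1 copy of the repeat counted, 22 of 30 tRNA genes fell and none rose, and 4 of 4 rRNA genes fell. Of 79 protein-coding genes 1, psbA, fell, 65 rose and 13 were not called. The median change was -1.26 for tRNA genes, -1.99 for rRNA genes and 1.29 for protein-coding genes, against 0.96 for all 113 genes. With median scaling 30 tRNA genes, 4 rRNA genes and 23 protein-coding genes fell and 23 protein-coding genes rose. With the rpoB operon scaling 30, 4 and 61 fell and none rose.

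The rRNA genes, which encode the RNA of the plastid ribosome, carried the deepest loss as a class. rrn16S (ArthCr086), the gene of the small-subunit rRNA and the first of its operon, had -0.47, -0.43 and 0.43 in ptac14 replicates 1, 2 and 3, against 1.93, 2.15 and 2.60 in Col-0. rrn23S (ArthCr087), the gene of the large-subunit rRNA, had -0.49, -0.50 and 0.55 in ptac14, against 1.70, 1.85 and 2.35 in Col-0. In both genes the ptac14 libraries lay below every Col-0 library, and replicate 3 was the only ptac14 library above its input. Groups without overlap were part of how both genes were chosen, and this held for 90.6% of all entries. The changes were -2.38 ± 0.26 for rrn16S and -2.12 ± 0.28 for rrn23S on the log2 scale (± SE; limma, adjusted p = 5.1e-06 and 5.6e-06). As multiples of input, rrn16S stood at 0.72, 0.74 and 1.35 in ptac14, against 3.80, 4.44 and 6.06 in Col-0. The small rRNA genes rrn4.5S (ArthCt109) and ArthCr091 changed by -1.85 ± 0.21 and -1.75 ± 0.23 (limma, adjusted p = 5.1e-06 and 5.6e-06). trnI (ArthCt107) and trnA (ArthCt108), which lie between rrn16S and rrn23S, changed by -2.0 ± 0.25 and -1.98 ± 0.25 (limma, adjusted p = 5.2e-06 and 5.6e-06).

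The whole bound stretch over the rRNA operon, from position 100651 to 108650 of the coverage table, averaged -0.41, -0.42 and 0.48 in ptac14, against 1.74, 1.90 and 2.27 in Col-0. It was below input in ptac14 replicates 1 and 2 and above it in replicate 3, and every Col-0 library lay above all of them. Its mirrored copy, from 130001 to 138000, gave -0.40, -0.44 and 0.44 in ptac14, against 1.72, 1.88 and 2.26 in Col-0. Reads of the repeat copies cannot be told apart, so the second set of values is not independent of the first.

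Among the 30 tRNA genes, which encode the transfer RNAs of plastid translation, the 22 that fell did so to different depths. trnE (ArthCt097), whose tRNA for glutamate is also the starting point of tetrapyrrole synthesis, showed the largest fall of all 113 genes. Its enrichment was -0.19, -0.16 and 0.72 in ptac14 replicates 1, 2 and 3, against 2.57, 2.80 and 2.83 in Col-0. The change was -2.61 ± 0.24 (limma, adjusted p = 2.2e-06), and trnP (ArthCt106), trnfM (ArthCt099) and trnY (ArthCt096) were also among the 10 largest falls. These 3 genes, for the proline, initiator methionine and tyrosine tRNAs, changed by -1.90 ± 0.25, -1.86 ± 0.23 and -1.84 ± 0.21 (limma, adjusted p = 6.2e-06, 5.6e-06 and 5.1e-06). That the groups did not overlap in these 4 genes was part of how they were chosen, and it held for 90.6% of all entries.

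In ptac14, 15 of 30 tRNA genes were above input in every library, against 0 of 4 rRNA genes and 18 of 79 protein-coding genes. trnT (ArthCt098), for a threonine tRNA, had 0.46, 0.47 and 1.27 in ptac14 replicates 1, 2 and 3, against 2.23, 2.26 and 1.78 in Col-0. trnQ (ArthCt090), for the glutamine tRNA, had 0.32, 0.53 and 0.97 in ptac14, against 2.04, 2.08 and 2.33 in Col-0, and trnL (Arthct122), for a leucine tRNA, had 0.58, 0.19 and 1.02 in ptac14, against 2.08, 2.35 and 2.42 in Col-0. All 3 were also strongly bound in Col-0. Their ptac14 and Col-0 libraries did not overlap, as in 25 of 30 tRNA genes and 90.6% of all entries. They changed by -1.36 ± 0.25, -1.54 ± 0.22 and -1.69 ± 0.23 (limma, adjusted p = 7.9e-05, 9.8e-06 and 7.4e-06).

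Residual signal was tested against the ptac14 input itself, in the model that also held the Col-0 libraries. The standard errors pool the spread of both groups, so the counts below do not rest on ptac14 libraries alone. At ArthCt100, a tRNA gene, the SE was 0.14 for either group, with an SD of 0.087 in ptac14 and 0.24 in Col-0. limma called 0 of 128 genes (0.0%) and 0 of 3085 bins, with 11 genes (8.59%) and 74 bins (2.4%) at an unadjusted p under 0.05. Of those 11 genes, 9 were tRNA genes and the others were psaI and rpl32, named after their values were seen, and all 11 were above input. In alternatives 5 genes were called with a larger pseudocount of 25% of the library mean and 6 in 1 fit with all groups of the series. The 6 were trnT, trnQ, trnL (Arthct122), trnS (ArthCt091), trnG (ArthCt116) and the tRNA gene ArthCt100, named after their values were seen. Their enrichments over input in ptac14 averaged 0.73, 0.61, 0.60, 0.49, 0.47 and 0.50 in that order. Without ptac14 replicate 2 the count was 2, without Col-0 replicate 1 it was 3 and without Col-0 replicate 3 it was 5, while the other libraries left it at 0.

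Some of these genes had little to lose. trnS (ArthCt091), for a serine tRNA, had 0.54, 0.41 and 0.52 in ptac14, against 0.61, 1.02 and 0.61 in Col-0, and the change of -0.26 ± 0.20 was not called (limma, adjusted p = 0.23). ArthCt100 had 0.59, 0.41 and 0.50 in ptac14, against 0.68, 0.72 and 0.29 in Col-0, so the groups overlapped. The change was -0.065 ± 0.20 (limma, adjusted p = 0.76). The 8 tRNA genes that were not called all had a Col-0 mean of at most 0.75, against a Col-0 class mean of 1.38.

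**Figure D2:**
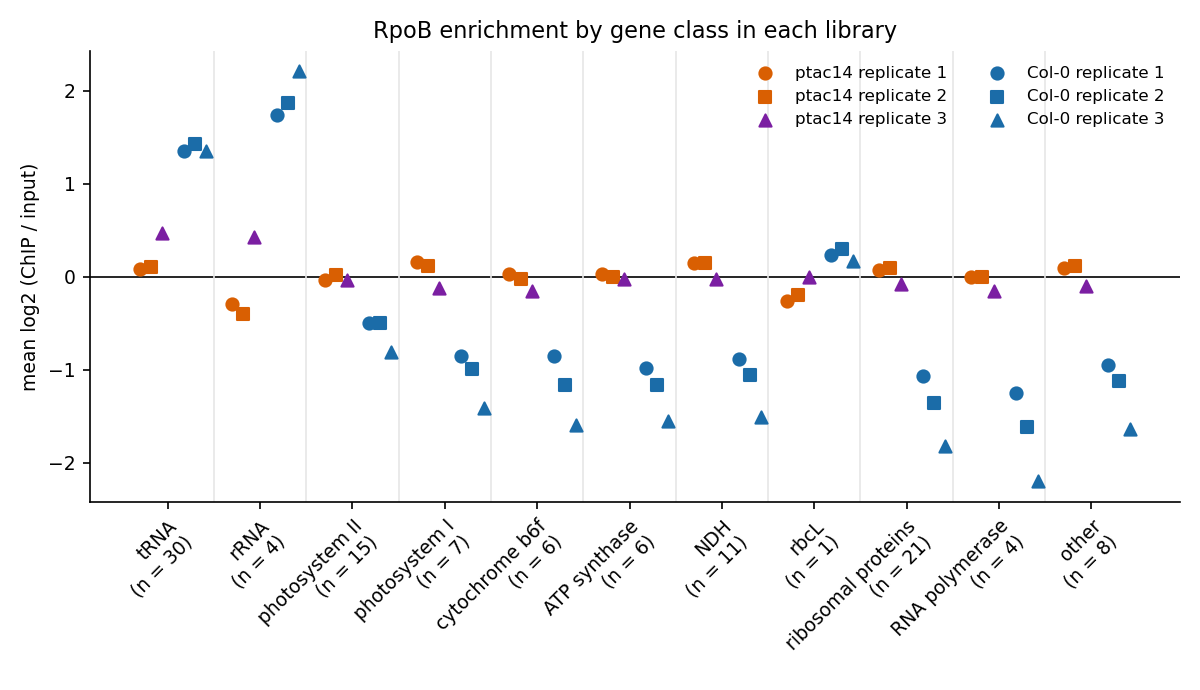
Mean enrichment (log2 ChIP over input, y axis) of the 11 gene classes in each library, with ptac14 to the left of Col-0 within a class, 1 point per library and n the number of genes. ptac14 libraries lie between -0.40 and 0.47 in all classes, and replicate 3 (purple triangle) lies above replicates 1 and 2 for tRNA and rRNA genes. Whether ptac14 lies above Col-0 in the photosystem, cytochrome b6f, ATP synthase, NDH and other classes turns round when libraries are scaled to their median bin, and for ribosomal protein and RNA polymerase genes when they are scaled to the rpoB operon.

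By class, tRNA genes averaged 0.086, 0.10 and 0.47 in ptac14 replicates 1, 2 and 3, against 1.35, 1.43 and 1.35 in Col-0. rRNA genes averaged -0.29, -0.40 and 0.43 in ptac14, against 1.74, 1.87 and 2.21 in Col-0. Both classes were above input in every Col-0 library, and in ptac14 the distance from input was larger in replicate 3 than in replicates 1 and 2 for tRNA genes. The group means were 0.22 ± 0.22 in ptac14 and 1.38 ± 0.045 in Col-0 for tRNA genes and -0.085 ± 0.45 in ptac14 and 1.94 ± 0.24 in Col-0 for rRNA genes (SD, n = 3 each).

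With libraries scaled to their mean, most protein-coding genes lay below input in Col-0 and near it in ptac14. The Col-0 side of this depends on the scaling: the Col-0 mean of photosystem I genes was 0.26 with median scaling and 0.95 with the rpoB operon scaling, and that of RNA polymerase genes was -0.40 and 0.28. Genes of RNA polymerase subunits averaged -0.0056, 0.0013 and -0.16 in ptac14, against -1.25, -1.62 and -2.20 in Col-0, and ribosomal protein genes averaged 0.071, 0.095 and -0.079 in ptac14, against -1.07, -1.36 and -1.82 in Col-0. Genes of the NDH complex, which carries electrons back into the plastoquinone pool, averaged 0.15, 0.15 and -0.024 in ptac14, against -0.88, -1.06 and -1.51 in Col-0. ptac14 libraries stayed within 0.16 of input in these 3 classes. Photosystem I genes averaged 0.054 ± 0.15 in ptac14 and -1.09 ± 0.29 in Col-0, cytochrome b6f genes -0.048 ± 0.090 in ptac14 and -1.20 ± 0.37 in Col-0 and ATP synthase genes 0.0022 ± 0.028 in ptac14 and -1.23 ± 0.30 in Col-0 (SD, n = 3 each). Under median scaling the sign of the change turned for photosystem I, cytochrome b6f, ATP synthase, NDH and photosystem II genes, and under the rpoB operon scaling also for ribosomal protein and RNA polymerase genes.

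Photosystem II genes were the least depleted large class in Col-0, with a mean of -0.031, 0.015 and -0.034 in ptac14, against -0.50, -0.50 and -0.81 in Col-0. The class held psbA (ArthCp002), which encodes the D1 protein of the reaction centre and is the photosystem II gene with the highest Col-0 enrichment. psbA had -0.090, -0.092 and 0.27 in ptac14 replicates 1, 2 and 3, against 1.11, 1.43 and 1.29 in Col-0. It fell by 1.24 on the log2 scale (SE 0.20, limma, adjusted p = 3.6e-05). The groups did not overlap, as in 90.6% of all entries. Replicate 3 was the only ptac14 library above input there, at 1.21 times input, against 2.15, 2.69 and 2.44 times in Col-0.

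rbcL (ArthCp030), which encodes the large subunit of Rubisco, had -0.26, -0.19 and -0.0069 in ptac14, against 0.23, 0.30 and 0.17 in Col-0. No library of 1 group reached the other, as in 90.6% of all entries, but the change of -0.39 ± 0.19 was not called (limma, adjusted p = 0.072). With the replicate number as a block the same change was called (limma, adjusted p = 0.036), and so it was under both other scalings and without Col-0 replicate 3 (limma, adjusted p = 0.025). The rbcL signal in Col-0 was higher ahead of the gene: the window from 250 bp before to 50 bp after its start had -0.25, 0.076 and 0.21 in ptac14, against 1.57, 1.76 and 1.02 in Col-0.

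The 6 largest rises relative to the library mean were at protein-coding genes, rps3 (ArthCp061), rpoC2 (ArthCp012), ndhB (ArthCp068), rps7 (ArthCp069), rps15 (ArthCp081) and petL (ArthCp040). rps3, for a protein of the small ribosomal subunit, had 0.30, 0.096 and -0.077 in ptac14, against -1.46, -1.97 and -2.36 in Col-0, and rpoC2, for a PEP subunit, had -0.0069, 0.033 and -0.12 in ptac14, against -1.59, -1.92 and -2.57 in Col-0. Both genes lay within 0.30 of input in ptac14. Groups without overlap were part of how they were chosen. The changes were 2.04 ± 0.24 and 2.0 ± 0.24, and those of ndhB, rps7, rps15 and petL were 1.99 ± 0.23, 1.91 ± 0.22, 1.88 ± 0.24 and 1.87 ± 0.27 (limma, adjusted p between 5.1e-06 and 9.8e-06). Under the rpoB operon scaling none of the 79 protein-coding genes was called higher, and the highest change among them was 0.14. There the change of rps15 turned negative, at -0.049. That of rpoB, which is not among the 6 and is part of the scaled region, was -0.024.

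**Figure D3:**
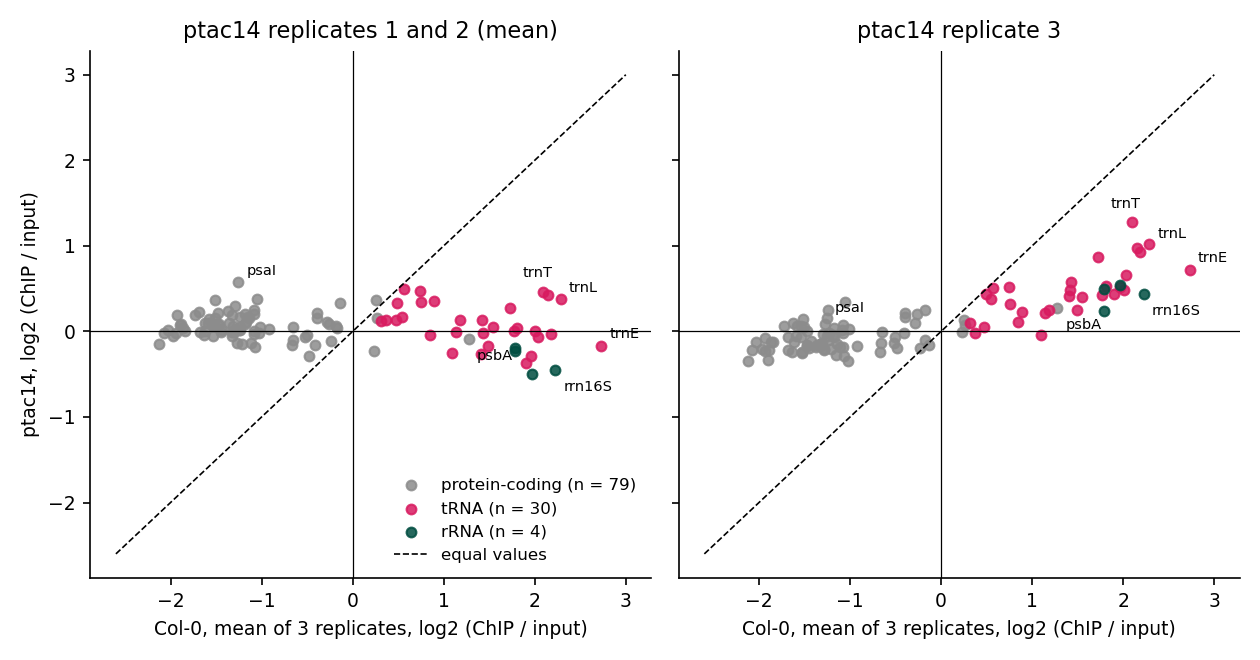
Enrichment of 113 genes (log2 ChIP over input) in ptac14 replicates 1 and 2 (left, mean of both) and in ptac14 replicate 3 (right) against the Col-0 mean of 3 replicates, coloured by gene type, with a dashed line of equal values. On the left the points lie flat around 0 whatever their Col-0 value, with rRNA genes below 0, and on the right tRNA and rRNA genes with high Col-0 values lie above 0.

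Replicate 3 of ptac14 differed from replicates 1 and 2. The slope of the bin enrichments on the mean Col-0 profile of the ptac3 set was -0.089, -0.085 and 0.23 in ptac14 replicates 1, 2 and 3, against 1.09, 1.27 and 1.52 in Col-0. The slope of replicate 3 was 17.9% of the Col-0 mean. Over 3085 bins, replicate 3 correlated with the 3 Col-0 libraries at r between 0.749 and 0.757, while replicates 1 and 2 did at r between -0.34 and -0.27. Replicates 1 and 2 correlated with each other at r = 0.483 and with replicate 3 at -0.14 and -0.11. The bins count both copies of the repeat. Over the 113 genes, replicates 1 and 2 correlated with replicate 3 at r = 0.17 and 0.15, so the sign differed between bins and genes. With the Col-0 libraries they correlated over genes at r between -0.17 and -0.099, and replicate 3 did at r between 0.817 and 0.837. Neighbouring bins share reads, and both libraries of each ratio enter these values, so they are descriptions with no test.

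By gene, replicate 3 was above both other ptac14 libraries in 22 of 30 tRNA genes and 4 of 4 rRNA genes, and below both in 56 of 79 protein-coding genes. Its 5 highest genes were trnT, trnL (Arthct122), trnQ, trnP and trnG (ArthCt116), at 1.27, 1.02, 0.97, 0.93 and 0.87. Its 3 lowest were rps7 (ArthCp069), psbT (ArthCp050) and rps2 (ArthCp011), at -0.35, -0.34 and -0.33. The Col-0 means of the same 8 genes were 2.09, 2.28, 2.15, 2.18, 1.72, -2.12, -1.03 and -1.90 in that order. The highest genes of replicate 3 were thus strongly bound in Col-0. Its lowest were below input there, as most genes were: the Col-0 mean was above input in 38 of 113 genes. trnP shows the contrast within ptac14, with -0.11, 0.043 and 0.93 in ptac14, against 2.14, 2.09 and 2.32 in Col-0.

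Along the genome, 31 bound regions of at least 150 bp were compared. Of these, 19, 22 and 30 were above input in ptac14 replicates 1, 2 and 3, and 16 were above input in all 3. Replicate 3 was the highest ptac14 library in 27 of 31 and lay below the lowest Col-0 library in 25. These regions include both copies of the inverted repeat. With 1 copy, 27 regions remained, of which 16, 21 and 26 were above input in ptac14 replicates 1, 2 and 3 and 15 in all 3. Of the 31, the 6 where replicate 3 was not below every Col-0 library included the region at trnT from position 31201 to 31550. It had 0.16, 0.39 and 1.08 in ptac14, against 1.59, 1.74 and 1.06 in Col-0, so replicate 3 reached the level of Col-0 replicate 3 there. A region ahead of psaA with no gene in it, from 41951 to 42100, had 0.37, 0.0074 and 0.45 in ptac14, against 0.62, 0.71 and 0.40 in Col-0.

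In Col-0, too, replicate 3 had the highest share of ChIP coverage in the bound bins, 77.1%. The Col-0 shares of 62.1%, 67.5% and 77.1% went with a mean ChIP coverage of 113, 524 and 1177. ChIP coverage of ptac14 replicates 2 and 3 was nearly equal, at 149 and 143, with shares of 19.2% and 28.2%. Whether depth plays a part was not tested. Over genes, ptac14 replicate 3 and Col-0 replicate 3 deviated from their group means together (r = 0.758), and the labels do not say what same-numbered samples share. Without replicate 3 the ptac14 counts were 36 genes lower and 68 higher, against 35 and 70 with it.

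Gene order within operons was examined next, from the first gene to the last. The clearest gradient in Col-0 was over trnE, trnY and trnD (ArthCt095), which are read as 1 unit in that order. trnY had 0.10, -0.085 and 0.48 in ptac14, against 1.90, 2.14 and 1.97 in Col-0, and trnD, for the aspartate tRNA, had 0.44, 0.27 and 0.23 in ptac14, against 0.92, 1.06 and 0.68 in Col-0. With the trnE values above, the first gene exceeded the last by -0.62, -0.42 and 0.49 in ptac14 replicates 1, 2 and 3, against 1.64, 1.74 and 2.14 in Col-0. Col-0 fell along the unit, ptac14 replicates 1 and 2 ran the other way, and replicate 3 ran with Col-0 at a smaller size. trnD changed by -0.58 ± 0.20 (limma, adjusted p = 0.013), a call lost without ptac14 replicate 2 or Col-0 replicate 2 (limma, adjusted p = 0.060 and 0.083).

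In the rRNA operon, rrn16S exceeded rrn4.5S by -0.37, -0.080 and 0.19 in ptac14, against 0.24, 0.46 and 0.62 in Col-0. In the mirrored copy of the repeat (ArthCr088 minus ArthCr090) the same difference was -0.023, 0.22 and -0.00091 in ptac14, against 0.43, 0.31 and 0.60 in Col-0. The rrn4.5S copies differed by up to 0.33, and no direction is read from ptac14, while the difference was positive in every Col-0 library in both copies. Over all 18 multi-gene operons the first gene minus the last averaged -0.083, -0.040 and 0.014 in ptac14, against -0.086, -0.059 and -0.028 in Col-0. Col-0 had no common direction, with 7 operons positive and 9 negative in 3 of 3 libraries, and the group means did not differ beyond the spread (exact permutation test, p = 0.6). By the mean of 3 libraries, in which opposite signs cancel, the difference between ends was smaller in size in ptac14 than in Col-0 at 16 of 18 operons.

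**Figure D4:**
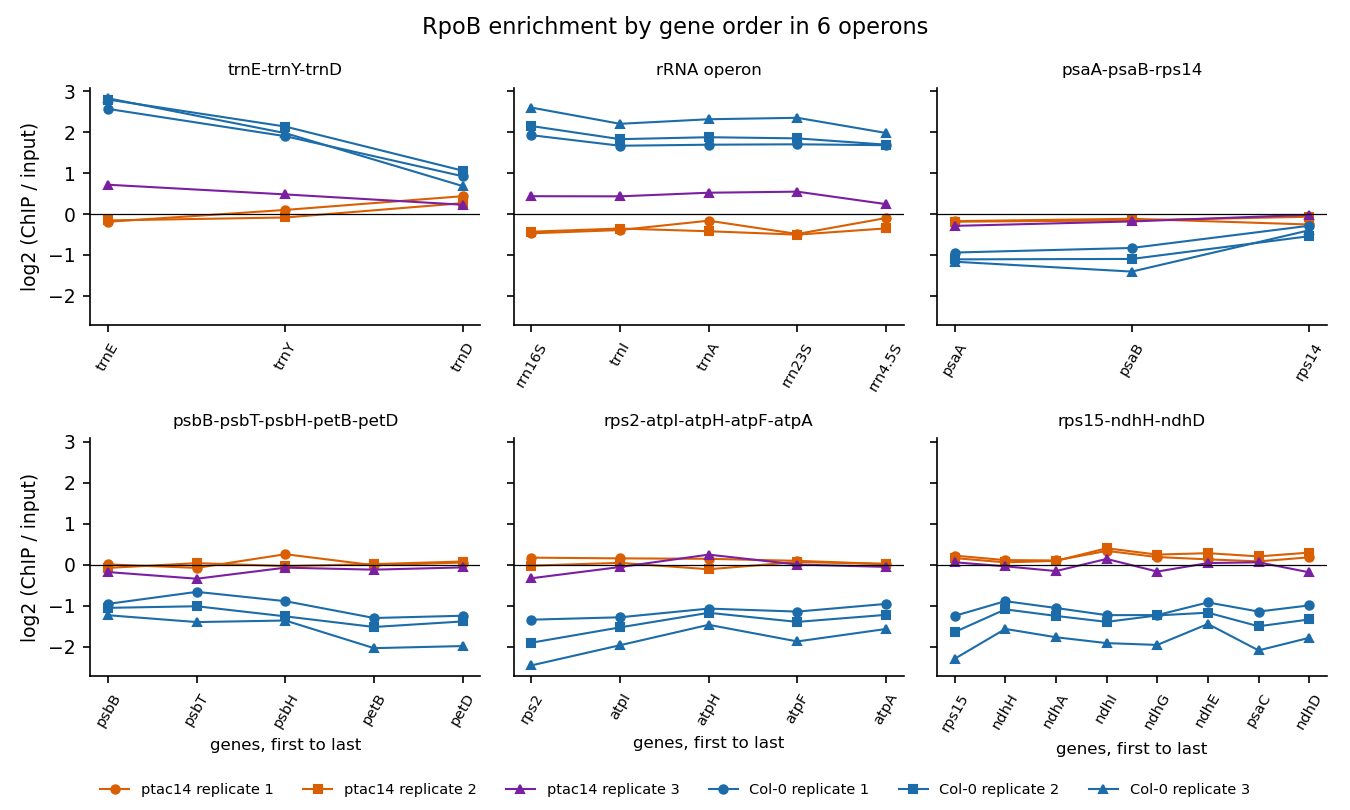
Enrichment (log2 ChIP over input) of each gene in 6 operons, genes in order from first to last on the x axis, 1 line per library with ptac14 in orange and purple and Col-0 in blue. Col-0 lines fall from trnE to trnD and lie high across the rRNA operon. At trnE ptac14 replicate 3 stands at 0.72 and replicates 1 and 2 at -0.19 and -0.16, and at rrn23S replicate 3 stands at 0.55 and replicates 1 and 2 at -0.49 and -0.50. For protein-coding operons the distance between ptac14 and Col-0 depends on the scaling of the libraries and can turn round.

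Among protein-coding operons the ends differed in either direction. The psaJ to rps18 operon, which pairs a photosystem I gene with ribosomal protein genes, had a first gene above its last by 0.24, -0.17 and 0.058 in ptac14, against 1.01, 1.17 and 1.29 in Col-0. The psbB operon, from the gene for the CP47 antenna protein to petD of the cytochrome b6f complex, had -0.046, -0.16 and -0.11 in ptac14, against 0.29, 0.33 and 0.75 in Col-0. In ptac14 the psaJ ends differed in either direction. The psbB differences were negative in ptac14 but smaller than the 0.33 by which repeat copies of 1 gene differed, so no direction is read from them. In the petL to petG operon the last gene was the higher in Col-0, with 0.15, 0.33 and 0.018 in ptac14, against -0.92, -1.34 and -1.41 in Col-0. The same order held for atpB and atpE, the beta and epsilon subunits of ATP synthase, with 0.23, -0.22 and -0.028 in ptac14, against -0.79, -0.93 and -0.70 in Col-0, and for psaA to rps14, with 0.082, -0.12 and -0.27 in ptac14, against -0.66, -0.57 and -0.77 in Col-0. atpE lies beside trnM, petG beside trnW and rps14 beside trnfM, so signal of a neighbouring tRNA gene cannot be told apart from that of the operon's end. trnK holds matK in its intron, and their values, 0.098, 0.15 and 0.093 in ptac14, against 0.38, 0.45 and 0.11 in Col-0 for trnK, are not independent.

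The long operon from rpl23 to rpoA had -0.033, -0.041 and -0.026 in ptac14, against -0.59, -0.60 and -0.40 in Col-0 for its first minus its last gene, and that from rps2 to atpA had 0.16, -0.043 and -0.28 in ptac14, against -0.39, -0.68 and -0.89 in Col-0. In both operons the last gene was the higher in every Col-0 library, and the ptac14 libraries differed less between the ends. psbK, psbD and ndhJ were called higher in ptac14, by 0.60 ± 0.21, 0.46 ± 0.19 and 0.56 ± 0.20 (limma, adjusted p = 0.013, 0.034 and 0.015). Each of these calls was lost when 1 library was left out, for psbK without ptac14 replicate 2 (0.54, limma, adjusted p = 0.071) and for psbD without any 1 of the 5 libraries other than Col-0 replicate 3 (limma, adjusted p between 0.055 and 0.11). For ndhJ it was lost without ptac14 replicate 1 or Col-0 replicate 2 (limma, adjusted p = 0.097 and 0.057). psbI, psbZ, rps14, ndhC and psaJ were not called, and petG and atpE were not called either, though they were higher with the replicate block (limma, adjusted p = 0.0097 and 0.020) and without Col-0 replicate 1 (limma, adjusted p = 0.010 and 0.034).

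Enrichment ahead of operons was a clearer feature of Col-0 than the order of genes. A window from 250 bp before to 50 bp after the start of the first gene was set against the gene bodies beyond it in 17 protein-coding units. The window exceeded the bodies by 0.019, 0.089 and 0.070 in ptac14 replicates 1, 2 and 3, against 0.43, 0.47 and 0.38 in Col-0. The groups did not overlap, and the means were 0.059 ± 0.036 in ptac14 and 0.43 ± 0.045 in Col-0 (SD, n = 3 each; exact permutation test, p = 0.1, the smallest possible). By the mean of 3 libraries, in which opposite signs cancel, the difference was smaller in size in ptac14 at 17 of 17 units. At psbK the means were -0.26 in ptac14 and 0.28 in Col-0, nearly equal in size and opposite in sign. Starts here are coding starts, and transcription starts were not used. Some windows lie on or beside tRNA genes. rpl23 lies 169 bp from one, inside its window, and had an excess of 1.03, 1.28 and 1.70 in Col-0. psbA, psbK and psaJ lie 273, 330 and 366 bp from one. At these units signal of the tRNA gene cannot be told apart from that of the operon's start. psbE, psaA, rbcL and psbB lie 1907 to 5808 bp from a tRNA or rRNA gene.

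In Col-0 the window was above the bodies in 3 of 3 libraries at 10 units, those of psbA, psbK, psaJ and rpl23 among them, and below them at 6. At psbE, which encodes a subunit of cytochrome b559, it exceeded the bodies by -0.040, 0.30 and 0.28 in ptac14, against 1.62, 1.42 and 1.84 in Col-0. At psaA, for a reaction-centre protein of photosystem I, the excess was 0.41, -0.0039 and 0.43 in ptac14, against 1.03, 1.23 and 1.17 in Col-0. The psbB operon gave -0.072, 0.14 and 0.20 in ptac14, against 0.94, 1.36 and 1.51 in Col-0. Over these 3 units the lowest Col-0 excess was 0.94 and the highest ptac14 excess was 0.43. At rbcL it was 0.015, 0.28 and 0.22 in ptac14, against 1.35, 1.48 and 0.87 in Col-0. At psbD, for the D2 protein, Col-0 was lower in the window and ptac14 was not: the difference was 0.24, 0.38 and 0.095 in ptac14, against -0.25, -0.36 and -0.75 in Col-0. psbD is known to be transcribed also from a promoter far ahead of the gene, outside this window.

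**Figure D5:**
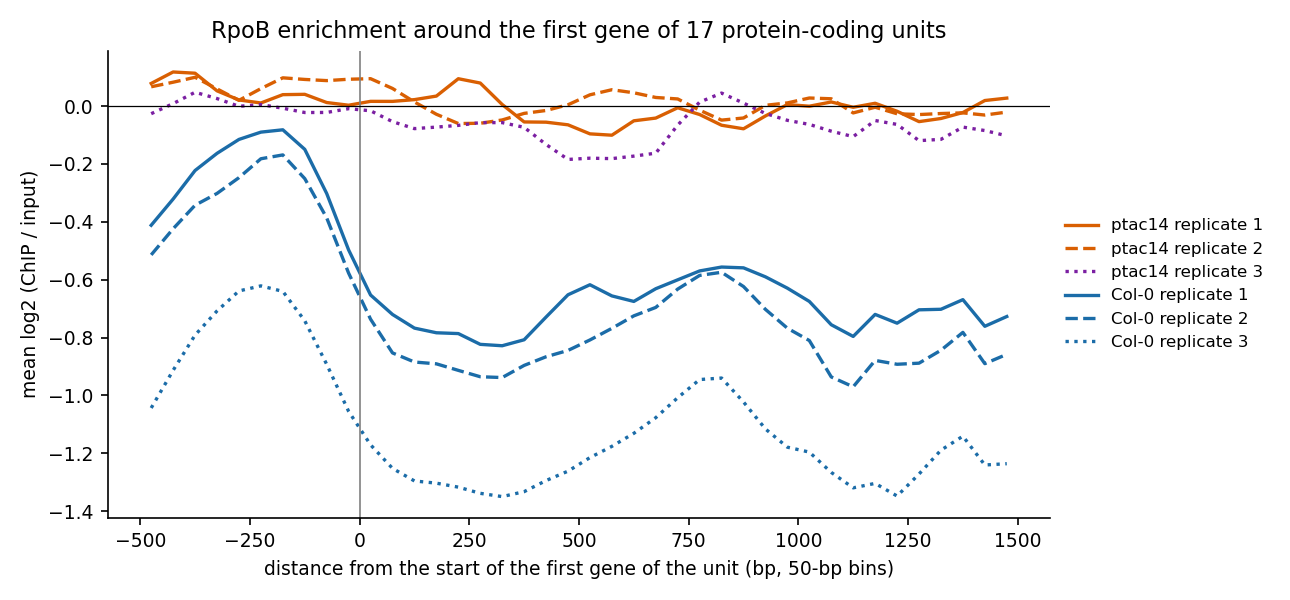
Mean enrichment (log2 ChIP over input, y axis) over 17 protein-coding units against the distance in bp from the start of the first gene (x axis, bins of 50 bp), with 1 line per library, ptac14 in orange and purple and Col-0 in blue. Col-0 libraries peak 175 to 225 bp ahead of the start, and ptac14 libraries stay between -0.18 and 0.12. The height of the Col-0 lines relative to 0 depends on the scaling of the libraries.

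Averaged over these units, Col-0 reached its highest value 175 bp ahead of the start, at -0.30, and its lowest 325 bp after it, at -1.04. Both are means over all 17 units, those beside tRNA genes included. In ptac14 no such peak was seen: the highest value of replicate 3 was 0.048, at 375 bp ahead, and its lowest was -0.18.

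Protein-coding genes near tRNA or rRNA genes were less depleted in Col-0. Distances were taken only to RNA genes of the counted copy of the repeat. The 21 genes within 500 bp of such an RNA gene, a distance chosen after the values were seen, averaged 0.046, 0.046 and -0.052 in ptac14, against -0.52, -0.66 and -1.03 in Col-0. The 58 genes farther away averaged 0.063, 0.076 and -0.080 in ptac14, against -1.0, -1.20 and -1.65 in Col-0. They include ycf1 (Arthcp087), which lies beside trnN (ArthCt110) of the other repeat copy and had a Col-0 mean of -1.69. Group means with this gene among the near genes were not computed. Near genes exceeded far genes by -0.0066 ± 0.030 in ptac14 and 0.55 ± 0.072 in Col-0 (SD, n = 3 each), and the groups did not overlap (exact permutation test, p = 0.1, the smallest possible). Of the near genes 12 rose and 1 fell, and of the far genes 53 rose and none fell, against 54.7% higher and 27.3% lower among all 128 entries. Under the rpoB operon scaling none of the 79 protein-coding genes rose and 61 fell.

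The difference between RNA genes and protein-coding genes summarises the loss. tRNA and rRNA genes exceeded protein-coding genes by -0.017, -0.025 and 0.53 in ptac14 replicates 1, 2 and 3, against 2.27, 2.54 and 2.94 in Col-0. Replicates 1 and 2 of ptac14 had no difference in that direction, and replicate 3 had a fraction of the wild-type one. The means were 0.16 ± 0.32 in ptac14 and 2.58 ± 0.34 in Col-0 (SD, n = 3 each; exact permutation test, p = 0.1), and the difference between them was -2.42, between -2.53 and -2.0 under the other scalings, pseudocount, filter and pooled inputs.

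Of 17 such summaries per library, 16 reached the smallest possible exact p of 0.1, which becomes 0.106 after Benjamini-Hochberg adjustment over the 17.

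The inputs of the genotypes were compared as a background. limma called 12 of 128 genes (9.38%), 9 lower (7.03%) and 3 higher (2.34%) in ptac14, and 30 at an unadjusted p under 0.05 (23.4%). The changes were small, between -0.19 at rpl32 and 0.19 at trnE. All 9 lower genes lie wholly or, for ycf1 (Arthcp087), partly in the small single-copy region of the genome, and ndhI (-0.19), ndhE (-0.17) and ndhD (-0.17) were among them. With the replicate number as a block 0 genes were called. The count was 0 without ptac14 replicate 1 or 2, 6 without ptac14 replicate 3, 5 without Col-0 replicate 2 and 2 without Col-0 replicate 3.

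The effect of ptac14 was set against that of ptac3, the other mutant with RpoB ChIP, each relative to its own Col-0. limma called 0 of 128 genes (0.0%) for a difference of the effects, with 19 at an unadjusted p under 0.05 (14.8%). The lowest adjusted p was 0.26. The effects differed by -0.82 to 0.87 over genes with a median of 0.29, and the lowest was at trnE, which changed by -2.61 in ptac14 and by -1.79 in ptac3 (difference -0.82 ± 0.31, SE). A p that misses the threshold does not show that the mutants act alike. Without Col-0 replicate 1, petL, rpl36 and rps3 were called, with differences of 1.09, 1.01 and 1.07 (limma, adjusted p = 0.046 each), and these names were taken after the values were seen.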

How the data were processed

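RpoB ChIP and input libraries of ptac14 and Col-0 seedlings were taken from the deposited table of the series, which the authors filled with coverage per position (154477 positions, whole numbers, a signal not scaled to depth, entered as another unit than counts). Per the submitters' processing notes, Trim Galore 0.4.1, Bowtie2 2.2.8.9, bedtools 2.25.0 and TAIR10 were used. Settings, duplicate removal and the treatment of repeat reads are not given in the sources used here, and reads that map equally to both repeat copies limit what each copy shows. Gene names and spans came from a RefSeq table (TAIR10.1). Its positions were checked against the coverage: steps of coverage mirrored about the centre of the inverted repeat in this table aligned best without a shift (0 bp, searched to 50 bp) in all 12 libraries. Of 129 gene entries 128 were fitted.

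Each library was scaled to its mean. Enrichment was log2 of ChIP over input after a pseudocount of 5% of the mean was added to both. Of 3090 bins, 5 were dropped for a mean input below 10% of the median bin. Genes, bins and inputs were tested with lmFit and eBayes of limma 3.58.1 in R 4.3.3, two-sided, without a block. A count model was not used because coverage is not a count of reads. Summaries per library were tested by exact permutation in SciPy 1.17.1. The fits were tested on simulated data. Deviations from the group mean correlated over genes between same-numbered samples of ptac14 and Col-0 (r = 0.548, 0.206 and 0.758). The labels do not state a pairing, and a fit with the replicate number as a block was also made. These values do not single out same-numbered pairs. ptac14 replicate 2 correlated more with Col-0 replicate 1 (r = 0.625), and ptac14 replicate 1 correlated with Col-0 replicate 2 at r = 0.216. Replicate 3 of each genotype correlated negatively with replicates 1 and 2 of the other (r between -0.733 and -0.264). Deviations within a group depend on each other, so the same-numbered values are not separate signs of pairing. Operon order came from textbook knowledge. No replicate pair was alike within counting error (lowest chi-square per degree of freedom 1.64, 12 pairs). Coverage has no molecular identifiers, so depth limits the precision of single bins by counting error at least.

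The genes named were the 10 largest falls and 6 largest rises among called genes without overlap of replicates, the first and last gene of each multi-gene operon, psbA and rbcL, and the 5 highest and 3 lowest genes of ptac14 replicate 3. These rules, the lists and the members were chosen with earlier results of these data known. Alternatives were other scalings, a pseudocount of 25%, no input filter, pooled inputs, bins of 300 bp, a fit with all groups of the series, the block, and each replicate left out.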

Additional observations from a re-analysis of the deposited data

How the results depend on the processing

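Falls of tRNA and rRNA genes, the start window excess, the profile slope and the contrast of RNA genes with protein-coding genes kept their direction under all scalings, the larger pseudocount, no input filter, pooled inputs and each replicate left out. Rises did not. With median scaling the class changes became photosystem II -0.74, photosystem I -0.16, cytochrome b6f -0.13, ATP synthase -0.064, NDH -0.063 and other -0.014, and the gene changes psbK -0.74, psbI -1.33, atpA -0.059, psbD -0.89, psbZ -1.26, rps14 -1.05, psaA -0.47, ndhJ -0.79, ndhC -1.05, atpE -0.91, atpB -0.061, petA -0.021, psbJ -0.047, psbE -0.24, petG -0.86, psaJ -1.04, psbB -0.32, psbT -0.40 and rpoA -0.44. With the rpoB operon scaling the class changes became photosystem II -1.44, photosystem I -0.85, cytochrome b6f -0.81, ATP synthase -0.75, NDH -0.75, ribosomal proteins -0.51, RNA polymerase -0.28 and other -0.70, the gene changes psbK -1.43, psbI -2.03, atpA -0.74, rps2 -0.040, rpoB -0.024, psbD -1.59, psbZ -1.95, rps14 -1.74, psaA -1.15, ndhJ -1.48, ndhC -1.75, atpE -1.60, atpB -0.74, accD -0.53, petA -0.70, psbJ -0.73, psbE -0.92, petG -1.55, psaJ -1.74, rps18 -0.56, psbB -1.0, psbT -1.09, petD -0.37, rpoA -1.13, rpl23 -0.59, ndhD -0.50 and rps15 -0.049, and 55.4% of bins were called. Each scaling fixes a level by construction: the main one the library mean, the others the median bin or the rpoB operon. None of them is neutral, and whether a rise is absolute was not tested. Genes above input in ptac14 numbered 5 with the 25% pseudocount, 6 in the fit with all groups (an alternative chosen after seeing the data) and 0 to 5 with a replicate left out. Input genes numbered 0 with the replicate block and 0 to 14 with a replicate left out. The block changed, beside these and the genes rbcL, petG and atpE, no other call of a named gene, and it gave 114 genes and 89.4% of bins. Genes differing between mutants numbered 0 to 3. The first minus last gene difference was -0.021 with the 25% pseudocount and ran from -0.0041 to 0.045 with a replicate left out. With a replicate left out psbI ran from -0.13 to 0.15 (negative, -0.023, also without ptac14 replicate 2) and psbZ from -0.0055 to 0.20. For results not explained by construction the cause was not tested. ptac14 ChIP, at a mean coverage of 69.1 to 149, limits how small a residual signal can be seen.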
